A study of Mus musculus with 12 samples.

Results

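The 10 genes described here are a keratin, adhesion and regulator set of the surface ectoderm, the epithelium that covers the embryo: Krt8, Krt18, Krt19, Epcam, Cdh1, Cldn6, Cldn7, Trp63, Tfap2a and Grhl2. They were named by symbol, not by their counts, and all 10 were found among the 36255 genes of the count table. Poly(A) RNA-seq counts were available for 11 libraries of mouse embryos, which fall into 6 groups by their titles. These were libraries labelled Skp1aKO at 9.5 days post coitum (dpc, 2 libraries), Skp1acont PI of that age (1 library), Skp1acont (2), wt PI (2) and wt (2) of that age, and wt 9.0 dpc (2). A second Skp1acont PI library was not analysed here. The labels give neither strain nor sex, do not spell out "cont", "PI" or "mb", and do not say how Skp1a was targeted or in which cells. The source is given as embryo although the growth field names a medium for ES cells and embryoid bodies, and which region of it was sampled is not stated. Nothing says that libraries sharing a label are separate embryos, so p-values measure only how far libraries differ, which can be technical.

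Before neurulation ends, the surface ectoderm is a simple epithelium whose cells are held by E-cadherin and tight junctions and filled with the keratins of simple epithelia. Tfap2a, which encodes AP-2 alpha, marks non-neural ectoderm and neural crest, and the Grainyhead-like factor Grhl2 drives epithelial adhesion genes and is needed in mice for neural tube closure. Trp63, which encodes p63, later commits this epithelium to a stratified epidermis, marked by Krt5 and Krt14. Most of these genes are also used by gut endoderm, placodes or trophoblast, so they mark an epithelial state and not the surface ectoderm alone.

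On GRCm38 the type II keratin gene Krt8 (ENSMUSG00000049382.10) lies on chromosome 15 from 101996698 to 102004482 on the minus strand. The type I gene Krt18 (ENSMUSG00000023043.7), whose product pairs with that of Krt8, lies next to it on the plus strand, from 102028180 to 102032027. The type I gene Krt19 (ENSMUSG00000020911.14) is on chromosome 11, 100140810 to 100148665. Epcam (ENSMUSG00000045394.9), the epithelial cell adhesion molecule, is on chromosome 17, 87635979 to 87651129. Cdh1 (ENSMUSG00000000303.12), which encodes E-cadherin, spans 106603351 to 106670246 of chromosome 8. The claudin genes of tight junctions are Cldn6 (ENSMUSG00000023906.3, chromosome 17, 23679249 to 23682446) and Cldn7 (ENSMUSG00000018569.12, chromosome 11, 69964779 to 69967885). Trp63 (ENSMUSG00000022510.14) covers 25683763 to 25892102 of chromosome 16, Tfap2a (ENSMUSG00000021359.16) 40715302 to 40738376 of chromosome 13, and Grhl2 (ENSMUSG00000022286.16) 37233036 to 37363569 of chromosome 15. Exons of Krt8, Tfap2a and Grhl2 overlap genes of the other strand by 101, 718 and 169 bases, and whether counting used strand is not given in the sources used here; these counts may hold reads of those neighbours. The table also has a row for the pseudogene Krt8-ps, with which reads of Krt8 could be shared.

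The promoters of Krt8, Krt18, Epcam and Cldn6 are shown because these genes had the highest level per kb of exon in wt 9.0 dpc and were all lower in wt 9.5 dpc. Each is the RefSeq window on GRCm38.p6 from 250 bases before to 50 bases after the gene start, read 5′ to 3′ on the gene's strand. The windows are chr15:102004293-102004592 (minus) for Krt8, chr15:102027966-102028265 (plus) for Krt18, chr17:87635729-87636028 (plus) for Epcam and chr17:23679115-23679414 (plus) for Cldn6. Capitals mark matches, on either strand, to CACCTG (read as CAGGTG on the other strand), the E-box bound by the SNAI and ZEB repressors, to ACCGGT, the core of the Grainyhead-like site, and to GCCNNNGGC, the AP-2 site.
Krt8: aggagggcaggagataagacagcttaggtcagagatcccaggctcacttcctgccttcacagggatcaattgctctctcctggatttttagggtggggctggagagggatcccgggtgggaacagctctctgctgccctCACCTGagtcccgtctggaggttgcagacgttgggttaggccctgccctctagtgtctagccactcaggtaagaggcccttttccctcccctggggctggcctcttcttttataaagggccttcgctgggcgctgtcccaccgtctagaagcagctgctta
Krt18: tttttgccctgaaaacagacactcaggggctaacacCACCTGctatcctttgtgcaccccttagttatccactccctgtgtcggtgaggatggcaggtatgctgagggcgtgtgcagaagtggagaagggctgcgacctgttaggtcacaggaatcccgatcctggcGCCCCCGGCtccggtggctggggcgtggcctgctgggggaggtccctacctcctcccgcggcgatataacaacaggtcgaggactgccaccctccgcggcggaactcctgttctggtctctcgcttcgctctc
Epcam: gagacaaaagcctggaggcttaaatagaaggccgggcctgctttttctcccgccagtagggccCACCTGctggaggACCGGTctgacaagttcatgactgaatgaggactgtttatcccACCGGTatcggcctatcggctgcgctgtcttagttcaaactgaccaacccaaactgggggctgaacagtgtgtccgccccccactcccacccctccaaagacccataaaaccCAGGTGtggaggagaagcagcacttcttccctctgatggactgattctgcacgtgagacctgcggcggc
Cldn6: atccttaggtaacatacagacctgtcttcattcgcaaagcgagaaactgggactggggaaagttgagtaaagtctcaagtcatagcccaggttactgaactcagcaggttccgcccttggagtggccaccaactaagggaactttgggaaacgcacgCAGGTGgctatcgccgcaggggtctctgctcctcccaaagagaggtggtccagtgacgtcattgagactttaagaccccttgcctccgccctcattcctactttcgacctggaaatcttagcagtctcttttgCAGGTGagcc
All 4 windows hold the E-box, 1 copy each in Krt8 and Krt18 and 2 each in Epcam and Cldn6, as do 20.2% of the 32851 windows of this length in the RefSeq table. Epcam holds 2 copies of ACCGGT, found in 2.33% of windows, and Krt18 holds 1 AP-2 match, found in 16.6%. Windows were found for 6 of the 10 genes; of the other 2, Tfap2a has no match in either of its windows, and Cldn7 has 2 E-boxes in 1 of its windows. Krt19, Cdh1, Trp63 and Grhl2 have no entry in that table. A match describes these letters and is not evidence of binding.

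Total counts ran from 2320599 to 11607085 per library, and a count of 0 allows, with 3 counts as that limit, up to 0.258 to 1.29 CPM, the count scaled to the depth of its library. Floors cover counting error only. Skp1a, the adaptor gene of SCF ubiquitin ligases, had 104 to 303 CPM in the 5 libraries with a Skp1a label and 930 to 1340 CPM in the 6 wt libraries. Its values labelled Skp1aKO (199 and 212 CPM) lay between those of Skp1acont (303 and 104 CPM), so the count did not separate these labels. The background rate, the median over 1492 olfactory, vomeronasal and taste receptor genes that such embryos are not known to use, was 0.298 to 1.41 CPM per kb of exon with a Skp1a label and 0.0982 to 0.17 CPM per kb in wt. Mitochondrial genes took 5.98% to 15.8% of counts with a Skp1a label and 2.44% to 4.01% in wt. Replicates correlated, over the log2 CPM of all genes, with r = 0.966 for Skp1aKO, 0.795 for Skp1acont and 0.976 to 0.98 for wt. Skp1acont replicate 2 stood apart, with the smallest total count and the largest mitochondrial share and background, and results that rest on it are given with and without it.

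Summed, the epithelial genes were higher in wt 9.0 dpc than in any library of 9.5 dpc. This sum, in CPM scaled by the trimmed mean of M-values (TMM), was 53.3 and 50.3 in the Skp1aKO-labelled libraries, 63.2 in Skp1acont PI, and 43.1 and 61.3 in Skp1acont. It was 74.1 and 61.6 CPM in wt PI, 50.7 and 57.9 CPM in wt 9.5 dpc, and 278 and 292 CPM in wt 9.0 dpc. The wt 9.0 dpc libraries thus lay above all others, while the groups of 9.5 dpc lay between 43.1 and 74.1 CPM. On library totals without TMM the sum was 54.0 to 87.5 CPM with a Skp1a label, of which the background rate described above would give 11.2 to 53.0 CPM, and 40.7 to 59.2 CPM in wt of the same age, where it would give 4.10 to 6.40 CPM. In bulk samples fewer epithelial cells and less RNA per cell cannot be told apart. The plot of CPM by library shows the 10 genes side by side.

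**Figure D1:**
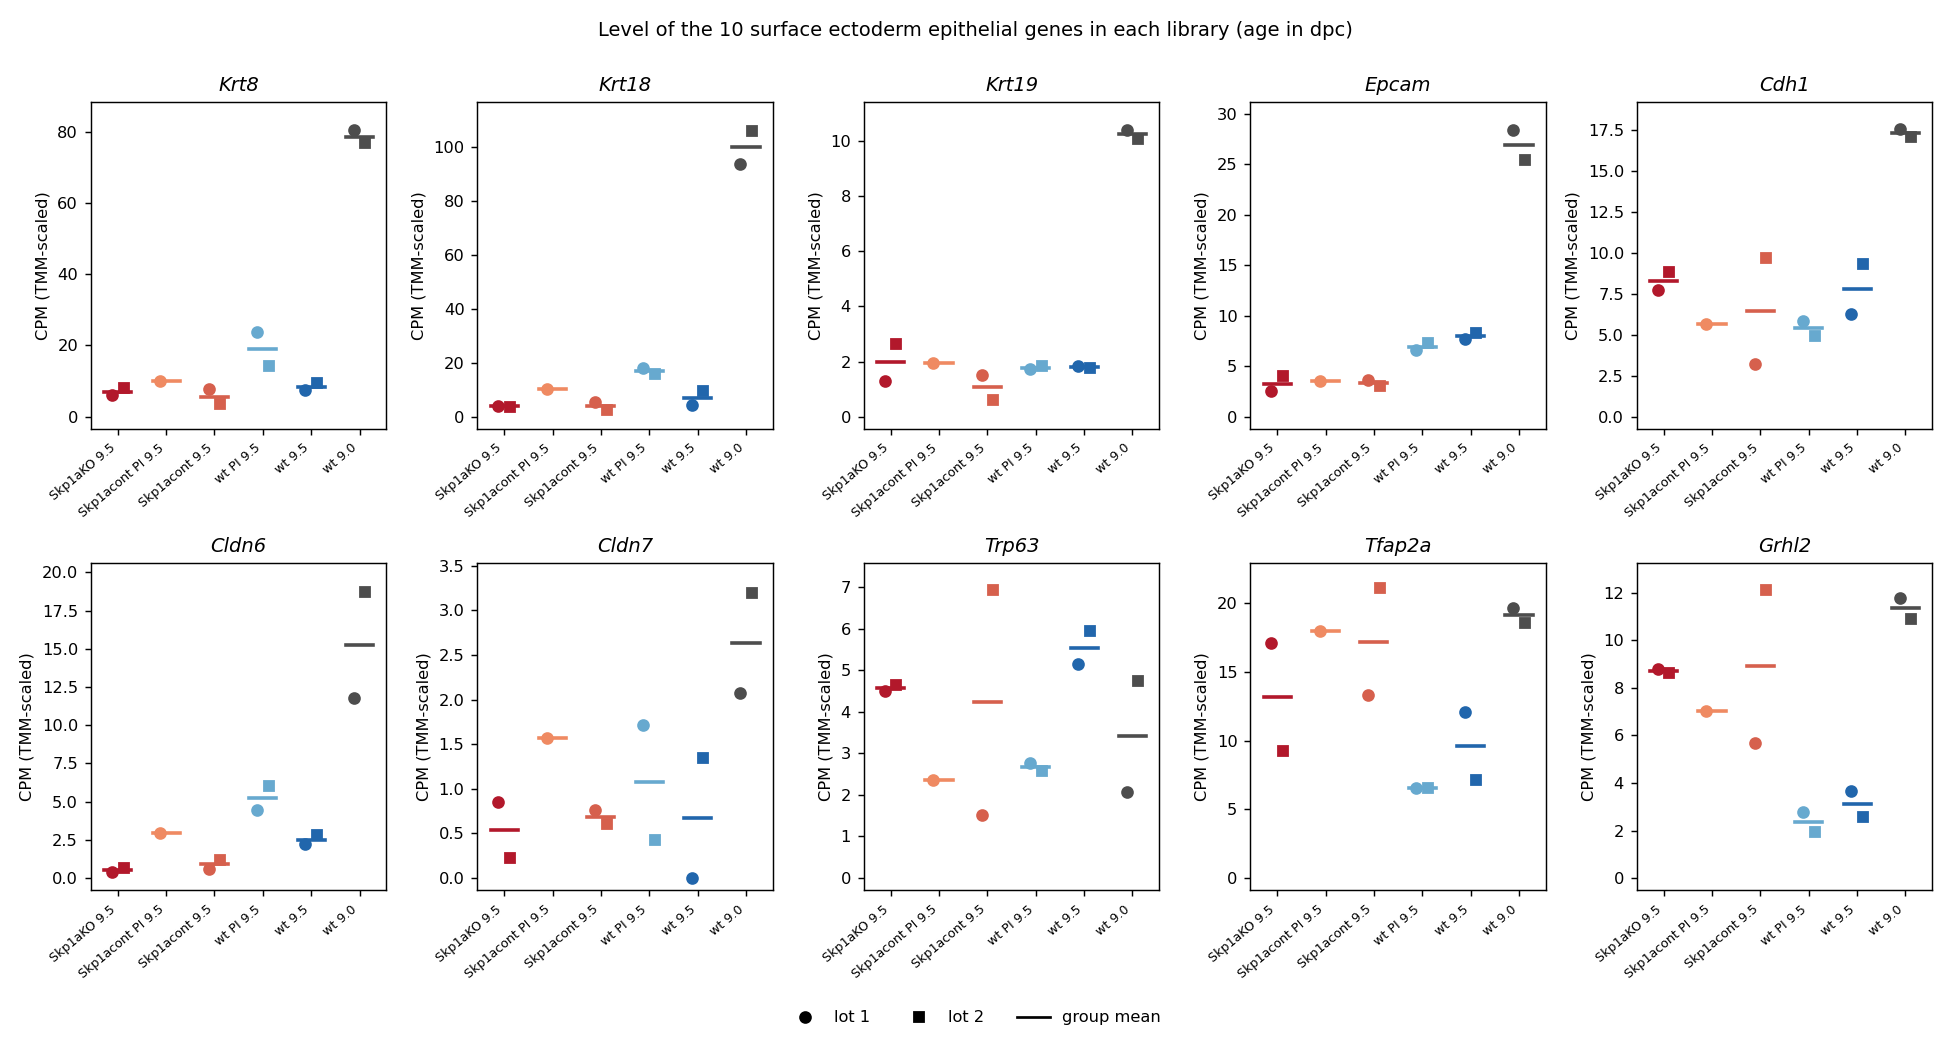
TMM-scaled CPM (y axes, each from 0) of the 10 surface ectoderm epithelial genes in each of 11 libraries by group (x axes, age in dpc); points are libraries, circles lot 1 and squares lot 2, and lines are group means. Krt8, Krt18, Krt19, Epcam, Cdh1, Cldn6 and Cldn7 are highest in wt 9.0 dpc, whereas Trp63 shows no such peak and Tfap2a and Grhl2 are also high in libraries with a Skp1a label.

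Per kb of exon, the mean level in wt 9.0 dpc was 69.6 CPM per kb for Krt18, 40.1 for Krt8, 12.2 for Epcam, 8.86 for Cldn6 and 5.51 for Krt19. Tfap2a followed at 3.91 CPM per kb, Cdh1 at 3.79, Cldn7 at 1.35, Grhl2 at 1.32 and Trp63 at 0.406. The libraries of neighbouring genes in this order overlapped for Tfap2a and Cdh1 and for Cldn7 and Grhl2, and did not overlap for the other neighbours. In wt PI the first 4 places were the same, with 11.8, 9.67, 3.16 and 3.05 CPM per kb, but the libraries of Krt18 and Krt8 overlapped, as did those of Epcam and Cldn6. In the Skp1aKO-labelled libraries the order was Krt8 (3.56 CPM per kb), Tfap2a (2.69), Krt18 (2.64) and Cdh1 (1.81), with Cldn7 last at 0.276. In wt 9.5 dpc it was Krt18 (4.78 CPM per kb), Krt8 (4.26), Epcam (3.64) and Tfap2a (1.97). Krt18 and Krt8 thus had the highest group means in all wt groups. In wt 9.5 dpc the libraries of Krt18 (3.07 and 6.49 CPM per kb) overlapped with those of Krt8 and of Epcam (3.51 and 3.76), and with the label Skp1aKO those of Tfap2a (3.49 and 1.89) overlapped with those of Krt8, Krt18 and Cdh1.

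The comparison of wt 9.5 dpc with wt 9.0 dpc asks how the genes change with stage. All of the keratins and adhesion genes that could be tested were lower in the later embryos, and so were Tfap2a and Grhl2, whereas Trp63 did not pass the test. Krt8 had 7.34 and 9.33 CPM in wt 9.5 dpc, against 80.3 and 76.8 CPM in wt 9.0 dpc. This is a log2 fold change of -3.17 ± 0.25 (SE; edgeR quasi-likelihood test with Benjamini-Hochberg adjustment over all genes, adjusted p = 0.000176). Krt18 had 4.40 and 9.33 CPM in wt 9.5 dpc, against 93.7 and 106 CPM in wt 9.0 dpc (log2 fold change -3.73 ± 0.27, adjusted p = 0.000249). Of the 9 genes tested, these partners had the 2 lowest log2 fold changes. Krt19 had 1.84 and 1.76 CPM in wt 9.5 dpc, against 10.4 and 10.1 CPM in wt 9.0 dpc (-2.48 ± 0.30, adjusted p = 0.000291). It passed the low-count filter, which is set at 1.51 CPM on library totals without TMM, through wt 9.0 dpc. On that scale Krt19 had 1.47 and 1.41 CPM in wt 9.5 dpc and 1.38 and 1.52 CPM in wt PI, so its direction against wt 9.0 dpc was largely fixed by the filter.

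Among the adhesion genes, Epcam had 7.71 and 8.25 CPM in wt 9.5 dpc, against 28.4 and 25.4 CPM in wt 9.0 dpc (-1.70 ± 0.17, adjusted p = 8.9e-05). Cdh1 had 6.24 and 9.33 CPM in wt 9.5 dpc, against 17.6 and 17.1 CPM in wt 9.0 dpc (-1.07 ± 0.21, adjusted p = 0.00452). Cldn6 had 2.20 and 2.84 CPM in wt 9.5 dpc, against 11.8 and 18.7 CPM in wt 9.0 dpc (-2.55 ± 0.31, adjusted p = 0.000342). For each of the 3 genes both later libraries lay below both earlier ones. Cldn7 was below the low-count filter and was not tested: it had counts of 0 and 10 (0 and 1.35 CPM) in wt 9.5 dpc and of 6 and 27 (2.08 and 3.20 CPM) in wt 9.0 dpc.

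Of the regulators, Grhl2 had 3.67 and 2.57 CPM in wt 9.5 dpc, against 11.8 and 10.9 CPM in wt 9.0 dpc (-1.90 ± 0.30, adjusted p = 0.0014). Tfap2a had 12.1 and 7.17 CPM in wt 9.5 dpc, against 19.7 and 18.6 CPM in wt 9.0 dpc (-1.04 ± 0.25, adjusted p = 0.0102). Both lay lower in each later library. Trp63 had 5.14 and 5.95 CPM in wt 9.5 dpc, against 2.08 and 4.74 CPM in wt 9.0 dpc (0.61 ± 0.36, adjusted p = 0.244), on counts of 14 and 44 and of 6 and 40. In all, of the 10 genes 8 were lower, none higher, 1 did not pass and 1 was not tested, against 16.7% of the 13126 genes tested that were called lower and 31.7% called in either direction. Without Krt19, 7 of the 8 other tested members were lower. The median log2 fold change was -1.90 over the 9 tested members, -1.80 without Krt19 and -0.03 over all genes. Without wt 9.0 dpc replicate 2 or wt 9.5 dpc replicate 2 the call of Tfap2a was lost (adjusted p = 0.0656 and 0.0876), and DESeq2 called neither Tfap2a (adjusted p = 0.0965) nor Cdh1 (adjusted p = 0.0576). DESeq2 called 18% of all genes, and those leave-out fits, each with a group of 1 library, also called a smaller share than 31.7%. Lost calls were thus not limited to these genes. In the fit of all 11 libraries, which has a wider spread and called 1.6% of all genes, 5 of the 10 genes were called, and Cdh1 (adjusted p = 0.348), Tfap2a (adjusted p = 0.323) and Grhl2 (adjusted p = 0.0646) were not.

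Part of the other epithelial genes were also lower in wt 9.5 dpc. Of the 6 tested desmosome genes 4 were lower and none higher, among them the plaque protein Dsp (4.04 and 5.14 CPM in wt 9.5 dpc, 17.3 and 17.8 CPM in wt 9.0 dpc, log2 fold change -1.86 ± 0.22) and Pkp2 (-1.80 ± 0.26), with Dsg2 (-1.22 ± 0.25) and Ppl (-1.15 ± 0.35). Of 15 adherens and tight junction genes 5 were lower and none higher, including the polarity gene Crb3 (-2.86 ± 0.46), Ocln, which encodes occludin (-1.73 ± 0.47), and F11r (-0.98 ± 0.26). For Crb3 and Ocln neither wt 9.5 dpc library reached the low-count filter, 1.51 CPM on library totals. The direction of both was thus largely fixed by the filter. With library totals in place of TMM 3 of the 15 junction genes were lower and 1 higher, beside 10.4% and 18.4% of all genes. With DESeq2 size factors 4 were lower and 1 higher, beside 15.7% and 15.5% of all genes. Of 11 further surface ectoderm and epithelial regulators 8 were lower, such as the protease inhibitor genes Spint1 (-3.92 ± 0.47) and Spint2 (-1.03 ± 0.16) and the splicing regulator Esrp1 (-1.50 ± 0.24). Spint1 reached the low-count filter in no wt library of 9.5 dpc, so its direction was largely fixed by the filter. The single regulator that was higher, Tfap2b (1.55 ± 0.16), encodes another AP-2 factor and is also on the neural crest list. Among the periderm and basal keratins only Krt7 passed the filter and it was lower (-1.63 ± 0.32); Krt5 had no count and Krt14 at most 0.135 CPM in wt 9.5 dpc.

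Genes of the mesenchymal state moved both ways. Of the 8 tested, 4 were higher in wt 9.5 dpc and 2 lower. Vim, which encodes vimentin, had 1380 and 1100 CPM in wt 9.5 dpc, against 259 and 270 CPM in wt 9.0 dpc (2.27 ± 0.13), and the N-cadherin gene Cdh2 (0.97 ± 0.10) and the repressor genes Zeb1 (0.94 ± 0.12) and Zeb2 (0.52 ± 0.13) were higher too. Snai1 and Twist1 were the lower ones (adjusted p = 0.0315 and 0.0241). Vim and Cdh2 are also expressed by neural progenitors.

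Markers of other cell types differed between the same libraries. The summed level of 9 neuroepithelium markers was 1750 to 1930 CPM in wt 9.5 dpc, against 520 to 522 CPM in wt 9.0 dpc, with 6 of 9 higher and 1 lower. That of 10 gut endoderm markers was 23.5 to 39.9 CPM in wt 9.5 dpc, against 64.0 to 66.8 CPM in wt 9.0 dpc, with 3 of 5 tested lower (Foxa2, Foxa1 and Spink1). Foxa2 had no count in wt 9.5 dpc and 11.5 to 11.8 CPM in wt 9.0 dpc. Foxa2 and Foxa1 are also genes of the floor plate. Of the 8 neural crest markers 2 were higher and 5 lower, with sums of 211 to 249 CPM in wt 9.5 dpc, against 283 to 302 CPM in wt 9.0 dpc, and of 6 tested placode markers 1 was higher and 5 lower, with sums of 101 to 114 CPM in wt 9.5 dpc and 128 to 134 CPM in wt 9.0 dpc. No tested marker of yolk sac or of trophoblast and decidua was called. The sum of the trophoblast and decidua markers was nevertheless 37.6 to 183 CPM in wt 9.5 dpc, against 8.65 to 10.5 CPM in wt 9.0 dpc. Most of it in wt 9.5 dpc came from the prolactin family gene Prl8a2. The part of these cell types in the change of the epithelial genes was not tested.

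**Figure D2:**
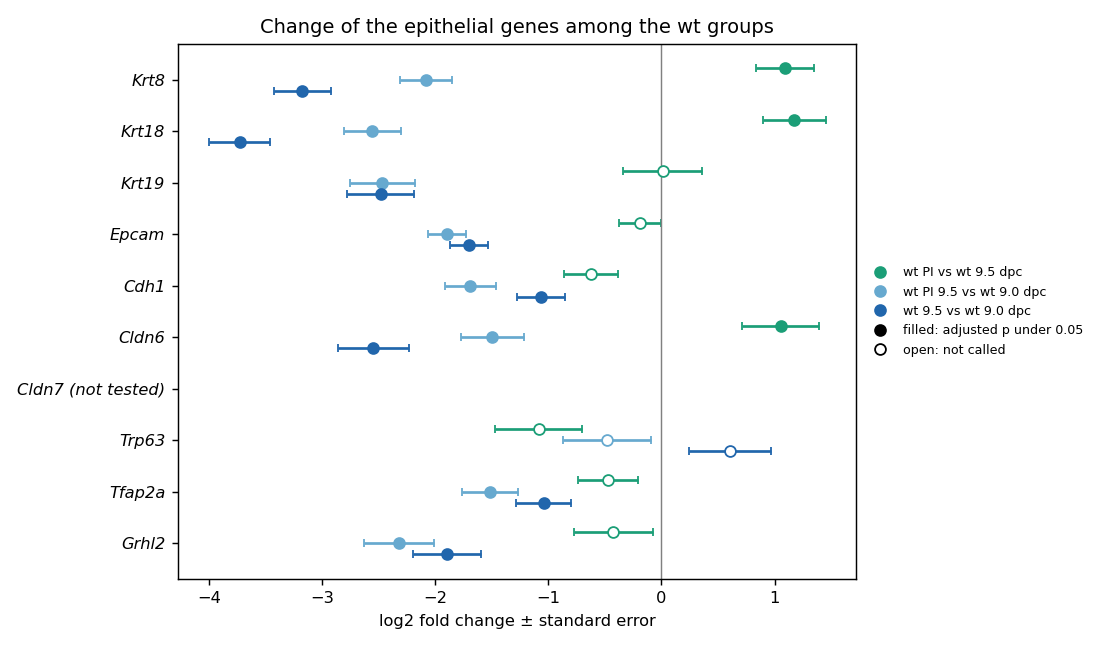
Log2 fold change (x axis, ± SE from edgeR) of each epithelial gene (y axis) in 3 comparisons of wt groups; filled points passed an adjusted p of 0.05 and open points did not. Krt8, Krt18 and Cldn6 lie at positive values for wt PI against wt 9.5 dpc, and 8 genes lie at negative values for both groups of 9.5 dpc against wt 9.0 dpc.

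The comparison of wt PI with wt 9.5 dpc asks what goes with the label PI at one stage. Krt8, Krt18 and Cldn6 were higher in wt PI, each by about 1 on the log2 scale, and no member passed the test downward. Krt8 had 23.8 and 14.1 CPM in wt PI, against 7.34 and 9.33 CPM in wt 9.5 dpc (1.09 ± 0.26, adjusted p = 0.0197). Krt18 had 17.9 and 15.9 CPM in wt PI, against 4.40 and 9.33 CPM in wt 9.5 dpc (1.18 ± 0.28, adjusted p = 0.0236). Cldn6 had 4.48 and 6.02 CPM in wt PI, against 2.20 and 2.84 CPM in wt 9.5 dpc (1.05 ± 0.34, adjusted p = 0.0424). For the 3 genes the groups did not overlap. Called higher were 3 of the 10 genes, beside 15.6% of all genes tested, and 28% of all genes were called in either direction. With the lot as a replicate block, Cdh1 (4.95 to 5.86 CPM in wt PI, 6.24 to 9.33 CPM in wt 9.5 dpc, -0.69 ± 0.23, adjusted p = 0.0263) and Trp63 (2.58 to 2.76 CPM in wt PI, 5.14 to 5.95 CPM in wt 9.5 dpc, -1.12 ± 0.33, adjusted p = 0.0131) were lower in wt PI, which brought the calls to 5, in a fit that called 38.9% of all genes, 21% higher and 17.9% lower. Without the block they did not pass (adjusted p = 0.0776 and 0.0591).

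The other genes did not differ by more than the test could resolve. Epcam had 6.55 and 7.31 CPM in wt PI, against 7.71 and 8.25 CPM in wt 9.5 dpc (-0.19 ± 0.18, adjusted p = 0.601), and Krt19 differed by 0.01 ± 0.35 (adjusted p = 0.99). Tfap2a (-0.47 ± 0.27, adjusted p = 0.221) and Grhl2 (-0.42 ± 0.35, adjusted p = 0.45) did not pass either. Cldn7, which was not tested, had 1.72 and 0.43 CPM in wt PI, around the 0 and 1.35 CPM of wt 9.5 dpc. The called values rest on few libraries: without wt PI replicate 1 or replicate 2 Krt18 lost its call (adjusted p = 0.122 and 0.121), Krt8 lost it without either wt 9.5 dpc library (adjusted p = 0.135 and 0.0912), and Cldn6 lost it without any of the 4 (adjusted p from 0.0674 to 0.324). Each of these leave-out fits held a group of 1 library and called a smaller share of all genes than the 28% with all libraries. In the fit of all 11 libraries none of the genes was called (13 of all genes were), and DESeq2 did not call Cldn6 (adjusted p = 0.239).

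Epithelial genes outside the set did not move as a block with PI. Of 15 junction genes 1 was lower, the tight junction receptor gene Cxadr (119 and 119 CPM in wt PI, 150 and 164 CPM in wt 9.5 dpc, -0.41 ± 0.09), and none was higher. Of 6 desmosome genes Pkp2 was higher (11.4 and 11.4 CPM in wt PI, 3.30 and 7.44 CPM in wt 9.5 dpc, 0.94 ± 0.27) and Perp (-1.72 ± 0.30) and Ppl (-1.66 ± 0.44) were lower. Of 11 regulators Tfap2b (-1.44 ± 0.16) and Klf5 (-1.38 ± 0.44) were lower and none was higher. Of 8 mesenchymal state genes 4 were lower, Vim (-0.88 ± 0.13), Zeb2 (-0.89 ± 0.13), Cdh2 (-0.48 ± 0.10) and Snai2 (-0.74 ± 0.20). The gut endoderm sum was 153 to 173 CPM in wt PI, against 23.5 to 39.9 CPM in wt 9.5 dpc. Of its 5 tested markers 4 were higher, among them Foxa2 and Foxa1, which are also floor plate genes. The neuroepithelium sum was 718 to 738 CPM in wt PI, against 1750 to 1930 CPM in wt 9.5 dpc, with 1 of 9 higher and 6 lower. Neural crest markers were lower in 5 of 8. The trophoblast and decidua sum was 8.62 to 10.8 CPM in wt PI, against 37.6 to 183 CPM in wt 9.5 dpc. What part these cell types had in the values of Krt8, Krt18 and Cldn6 was not tested.

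Against wt 9.0 dpc, wt PI had lower levels of 8 genes: the keratins, Epcam, Cdh1, Cldn6, Tfap2a and Grhl2, with that of Krt19 again largely fixed by the filter. The comparison shares the wt 9.0 dpc libraries with the stage comparison, and its values are given for themselves. Krt8 had 23.8 and 14.1 CPM in wt PI, against 80.3 and 76.8 CPM in wt 9.0 dpc (-2.08 ± 0.23, adjusted p = 0.00212), Krt18 differed by -2.55 ± 0.25 (adjusted p = 0.00207) and Krt19 by -2.47 ± 0.29 (adjusted p = 0.000801). Epcam (-1.89 ± 0.17, adjusted p = 0.000186), Cdh1 (-1.69 ± 0.22, adjusted p = 0.00142) and Cldn6 (-1.50 ± 0.28, adjusted p = 0.00724) were lower as well. So were Tfap2a (6.55 and 6.56 CPM in wt PI, 19.7 and 18.6 CPM in wt 9.0 dpc, -1.51 ± 0.25, adjusted p = 0.0039) and Grhl2 (2.76 and 1.94 CPM in wt PI, 11.8 and 10.9 CPM in wt 9.0 dpc, -2.32 ± 0.31, adjusted p = 0.00146). Trp63 had 2.76 and 2.58 CPM in wt PI, inside the 2.08 and 4.74 CPM of wt 9.0 dpc (-0.48 ± 0.39, adjusted p = 0.459). The 8 lower calls stand beside 6.99% of all genes called lower and 15.6% called at all, or 13.1% and 28.5% with the lot as a replicate block. Without Krt19 they are 7 of 8 tested.

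Foxa2 and Foxa1, transcription factors of gut endoderm and floor plate, had 13.0 to 13.8 CPM and a mean of 11.8 CPM in wt PI, against 11.5 to 11.8 CPM and a mean of 11.4 CPM in wt 9.0 dpc. The gut endoderm sum was 153 to 173 CPM in wt PI, against 64.0 to 66.8 CPM in wt 9.0 dpc, with Spink1 and Trh higher and Sox17 lower among 5 tested markers. The neuroepithelium sum was 718 to 738 CPM in wt PI, against 520 to 522 CPM in wt 9.0 dpc, with 3 of 9 markers higher and 1 lower. The neural crest sum was 138 CPM in both wt PI libraries, against 283 to 302 CPM in wt 9.0 dpc, with 1 of 8 markers higher and 5 lower. The part of these cell types in the lower epithelial genes was not tested. Of the other lists, 5 of 15 junction genes, 5 of 6 desmosome genes and 7 of 11 regulators were lower and none higher. Dsp (-2.35 ± 0.22), Ppl (-2.81 ± 0.40), Ocln (-2.63 ± 0.51), Crb3 (-1.90 ± 0.41), Esrp1 (-2.21 ± 0.25), Tfap2c (-1.81 ± 0.28) and Spint1 (-2.31 ± 0.37) were among them. For Ocln and Spint1 no wt library of 9.5 dpc reached the low-count filter, and for Crb3 only wt PI replicate 1 did. The direction of Ocln, Spint1 and Crb3 was thus largely fixed by the filter. Without wt PI replicate 2 only 3 of the 10 genes were called, and Krt18, Cdh1, Cldn6, Tfap2a and Grhl2 were not (adjusted p from 0.0502 to 0.0852). Cldn6 also lost its call without wt PI replicate 1 (adjusted p = 0.0585) or wt 9.0 dpc replicate 2 (adjusted p = 0.0828). These leave-out fits each held a group of 1 library and called a smaller share of all genes than the 15.6% with all libraries. Lost calls there were thus not limited to these genes. In the fit of all 11 libraries none of the genes was called (adjusted p from 0.079 to 0.311 for the 8), where 2 of all genes were.

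Between the Skp1aKO-labelled libraries and Skp1acont, the comparison nearest to the knockout contrast that the series names, none of the 10 genes was called, as was none of the 18837 genes tested (0%). Unadjusted, p was under 0.05 for 1308 genes, none of them in the set, and DESeq2 called 95 genes, none of them in the set. Krt8 had 5.99 and 7.95 CPM in the Skp1aKO-labelled libraries, against 7.60 and 3.62 CPM in Skp1acont (0.27 ± 0.41, adjusted p = 1). Epcam had 2.57 and 3.97 CPM in the Skp1aKO-labelled libraries, against 3.61 and 3.02 CPM in Skp1acont (-0.03 ± 0.35, adjusted p = 1). Grhl2 had 8.78 and 8.61 CPM in the Skp1aKO-labelled libraries, against 5.70 and 12.1 CPM in Skp1acont (-0.01 ± 0.40, adjusted p = 1). The groups overlapped for all 10 genes, and the Skp1acont libraries differed from each other more than the groups did. The adjusted p of the 9 tested genes ran from 0.928, for Krt19 (0.79 ± 0.59), to 1. None of the genes of the 5 epithelial and mesenchymal lists was called.

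Without Skp1acont replicate 2, Cdh1 had 7.71 and 8.83 CPM in the Skp1aKO-labelled libraries, against 3.23 CPM in the remaining Skp1acont library (1.37, adjusted p = 0.0118). Trp63 had 4.49 and 4.64 CPM in the Skp1aKO-labelled libraries, against 1.52 CPM in that library (1.59, adjusted p = 0.0379). Both passed in that fit, which called 27.3% of all genes, 9.79% higher and 17.5% lower. The lone Skp1acont library is assumed there to vary like the other groups, and 3 of 18 junction genes, 2 of 9 desmosome genes and 2 of 16 regulators were higher, with 2 of the junction genes lower. Without Skp1acont replicate 1, in contrast, the log2 fold changes were -0.25 for Cdh1 and -0.62 for Trp63 (adjusted p = 0.571 and 0.286). The counts of Trp63, 21 and 21 in the Skp1aKO-labelled libraries and 8 in Skp1acont replicate 1, were 1.01, 0.92 and 0.76 times what the background rate of each library gives over the exons of the gene. Those of Cdh1, 36 and 40 in the Skp1aKO-labelled libraries and 17 in Skp1acont replicate 1, were 3.17, 3.21 and 2.96 times the background count.

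Against wt 9.5 dpc, the Skp1aKO-labelled libraries had less Epcam and Cldn6 and more Grhl2, with the keratins not called. Epcam had 2.57 and 3.97 CPM in the Skp1aKO-labelled libraries, against 7.71 and 8.25 CPM in wt 9.5 dpc (-1.29 ± 0.32, adjusted p = 0.0177). Cldn6 had 0.43 and 0.66 CPM in the Skp1aKO-labelled libraries, counts of 2 and 3, and 2.20 and 2.84 CPM in wt 9.5 dpc (-2.20 ± 0.58, adjusted p = 0.0208). Grhl2 had 8.78 and 8.61 CPM in the Skp1aKO-labelled libraries, against 3.67 and 2.57 CPM in wt 9.5 dpc (1.52 ± 0.43, adjusted p = 0.0254). The groups did not overlap for these 3 genes. Of the 10 genes 1 was thus higher and 2 lower, beside 17.6% and 18.7% of all genes, 36.4% together. Krt8 (-0.28 ± 0.40, adjusted p = 0.574), Krt19 (0.13 ± 0.55, adjusted p = 0.856), Cdh1 (0.05 ± 0.45), Trp63 (-0.29 ± 0.62) and Tfap2a (0.50 ± 0.39) did not pass, nor did Krt18, with 4.07 and 3.53 CPM in the Skp1aKO-labelled libraries, against 4.40 and 9.33 CPM in wt 9.5 dpc (-0.92 ± 0.43, adjusted p = 0.109). Cldn7 was not tested, with 0.86 and 0.22 CPM in the Skp1aKO-labelled libraries, against 0 and 1.35 CPM in wt 9.5 dpc.

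These calls depended on the scaling, the background and the tool. Over all genes the median log2 fold change came to 0.24 with TMM, 0.47 with the size factors of DESeq2 and 1.04 with library totals; higher genes made up 48.5%, 52.7% and 83% of those called. With library totals Epcam (-0.47, adjusted p = 0.303) and Cldn6 (-1.41, adjusted p = 0.102) were not called, and Tfap2a was higher beside Grhl2 (1.28, adjusted p = 0.0269). With the background subtracted from the counts, an alternative chosen after the data were seen, Grhl2 (1.70, adjusted p = 0.138) and Epcam (-1.22, adjusted p = 0.086) lost their calls. Leaving out any 1 of the 4 libraries ended all 3 calls (adjusted p from 0.058 to 0.187), and without Skp1acont replicate 2, which is not in the comparison but adds to the shared spread, 5 were called, with Krt18 (-0.84, adjusted p = 0.0229) and Tfap2a (0.68, adjusted p = 0.0439) added, in a fit that called 67.9% of all genes. The fits that each left out 1 of the 4 libraries held a group of 1 library. They called a far smaller share of all genes than the 36.4% with all libraries, so lost calls there were not limited to these genes. DESeq2 called Grhl2 but neither Epcam (-1.06, adjusted p = 0.0822) nor Cldn6 (-2.00, adjusted p = 0.0775).

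The comparison of Skp1acont with wt, averaged over PI and no PI at 9.5 dpc, asks how far the possible controls lie from wild type. Grhl2 and Tfap2a were higher and Epcam and Cldn6 lower in Skp1acont. Grhl2 had 7.04 CPM in Skp1acont PI, 5.70 and 12.1 CPM in Skp1acont, 2.76 and 1.94 CPM in wt PI, against 3.67 and 2.57 CPM in wt 9.5 dpc (1.59 ± 0.34, adjusted p = 0.00767). Tfap2a had 18.0 CPM in Skp1acont PI, 13.3 and 21.1 CPM in Skp1acont, 6.55 and 6.56 CPM in wt PI, against 12.1 and 7.17 CPM in wt 9.5 dpc (1.16 ± 0.30, adjusted p = 0.0153). For both genes every Skp1acont library lay above every wt library of that age. Epcam had 3.52 CPM in Skp1acont PI, 3.61 and 3.02 CPM in Skp1acont, 6.55 and 7.31 CPM in wt PI, against 7.71 and 8.25 CPM in wt 9.5 dpc (-1.12 ± 0.26, adjusted p = 0.0104). Cldn6 had 2.94 CPM in Skp1acont PI and 0.57 and 1.21 CPM in Skp1acont, which overlap with the 2.20 to 6.02 CPM of the 4 wt libraries (-1.23 ± 0.39, adjusted p = 0.0315). Of the 10 genes 2 were higher and 2 lower, beside 22.5% and 20.1% of all genes, 42.6% together.

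The higher calls of Grhl2 and Tfap2a held under all alternatives run for this comparison, whereas the lower ones did not. Here the median over all genes came to 0.25 with TMM, 0.47 with size factors and 0.91 with library totals, and higher genes made up 52.9%, 59.4% and 83.7% of those called. With library totals Epcam (-0.46, adjusted p = 0.21) and Cldn6 (-0.56, adjusted p = 0.31) were not called, and DESeq2 called neither (adjusted p = 0.0514 and 0.163). Without wt PI replicate 2 or wt 9.5 dpc replicate 2 the lower calls were lost too (Epcam adjusted p = 0.0614 and 0.0672), and without Skp1acont replicate 1 Krt8 (-1.02, adjusted p = 0.00388) and Krt18 (-1.15, adjusted p = 0.00221) were called lower as well, in a fit that called 71.5% of all genes. The fits without wt PI replicate 2 or wt 9.5 dpc replicate 2 each held a further group of 1 library. They called a smaller share of all genes than the 42.6% with all libraries, so lost calls there were not limited to Epcam and Cldn6. Krt8 (-0.72 ± 0.31, adjusted p = 0.0827) and Krt18 (-0.78 ± 0.32, adjusted p = 0.0729) did not pass with all libraries. The effect of PI did not differ between Skp1acont and wt for any of the 9 genes by the interaction test (adjusted p from 0.853 to 1), where 0 of all genes were called and Skp1acont PI has 1 library.

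**Figure D3:**
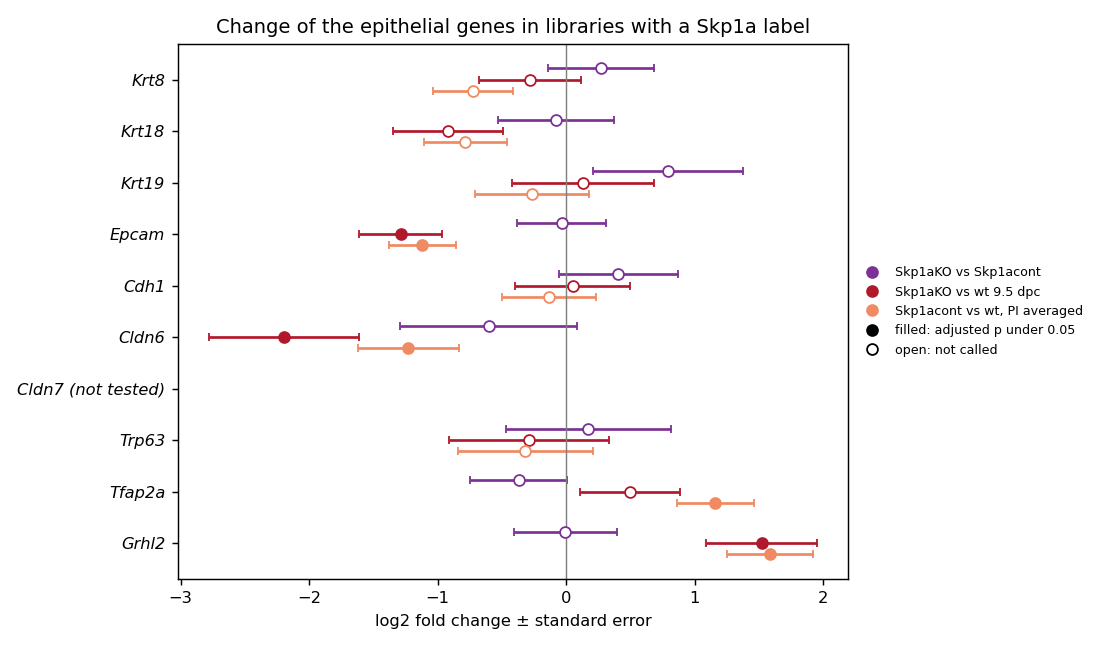
Log2 fold change (x axis, ± SE from edgeR) of each epithelial gene (y axis) in 3 comparisons that include libraries with a Skp1a label; filled points passed an adjusted p of 0.05. The points of Skp1aKO against Skp1acont are all open, Epcam and Cldn6 are filled at negative values and Grhl2 at positive values in both comparisons with wt, and Tfap2a is filled only for Skp1acont.

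Other epithelial genes of the Skp1a-labelled libraries went both ways. Of 18 regulators, 3 were higher and 2 lower in the Skp1aKO-labelled libraries than in wt 9.5 dpc, beside 17.6% and 18.7% of all genes. St14, which encodes the epithelial protease matriptase, had 50.9 and 49.7 CPM in the Skp1aKO-labelled libraries, against 4.04 and 6.90 CPM in wt 9.5 dpc (3.14 ± 0.58, adjusted p = 0.00683). The homeobox gene Dlx5 had 2.14 and 2.21 CPM in the Skp1aKO-labelled libraries and no count in wt 9.5 dpc. Ehf was higher (1.50 and 3.09 CPM in the Skp1aKO-labelled libraries, against 0 and 0.271 CPM in wt 9.5 dpc) and Tfap2b lower (-0.92 ± 0.32). Of 18 junction genes Cxadr (-1.86 ± 0.38) and the beta-catenin gene Ctnnb1 (115 and 120 CPM in the Skp1aKO-labelled libraries, 518 and 724 CPM in wt 9.5 dpc, -2.40 ± 0.65) were lower and Cgn, which encodes cingulin, was higher (1.18 ± 0.37). Of 9 desmosome genes Perp was lower (1.07 and 1.32 CPM in the Skp1aKO-labelled libraries, 7.34 and 12.4 CPM in wt 9.5 dpc, -3.05 ± 0.47) and Pkp1 higher (2.14 and 1.10 CPM in the Skp1aKO-labelled libraries, against 0 and 0.135 CPM in wt 9.5 dpc). For Ehf and Pkp1 no wt library reached the low-count filter of this fit, 2.5 CPM on library totals. Their direction was thus largely fixed by the filter. Dlx5 reached it in no wt library of 9.5 dpc, and among the libraries compared it passed through the Skp1aKO-labelled ones. Of 8 mesenchymal state genes Zeb1 (-1.02 ± 0.32) and Fn1 (-1.54 ± 0.51) were lower. With library totals 5 of 18 junction genes, 5 of 9 desmosome genes and 5 of 18 regulators were higher, 2 junction genes and 1 desmosome gene were lower, and no mesenchymal state gene was called. Among all genes 36.3% were higher and 7.41% lower in that fit. With the background subtracted 0 of 16 junction genes were higher and 3 lower, 0 of 7 desmosome genes higher and 3 lower, and 1 of 12 regulators higher and 2 lower. There 10.2% of all genes were higher and 14.4% lower. Without Skp1acont replicate 2, which adds to the shared spread, 5 of 18 junction genes were higher and 4 lower, 4 of 9 desmosome genes higher and 1 lower, 5 of 16 regulators higher and 2 lower, and 6 of 8 mesenchymal state genes lower, in the fit that called 67.9% of all genes. The neuroepithelium sum was 679 to 691 CPM in the Skp1aKO-labelled libraries, against 1750 to 1930 CPM in wt 9.5 dpc, and 2 of 9 markers were higher and 2 lower. The gut endoderm sum was 43.2 to 57.6 CPM in the Skp1aKO-labelled libraries, against 23.5 to 39.9 CPM in wt 9.5 dpc, with 3 of 6 markers higher and 1 lower, while 3 of 8 neural crest markers were lower and none higher. The part of these cell types in the values of Epcam, Cldn6 and Grhl2 was not tested.

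In Skp1acont against wt, 5 of 18 regulators were higher and 2 lower, beside 22.5% and 20.1% of all genes. St14 had 25.4 CPM in Skp1acont PI and 22.4 and 90.0 CPM in Skp1acont, against 10.3 and 8.60 CPM in wt PI, against 4.04 and 6.90 CPM in wt 9.5 dpc (2.36 ± 0.43, adjusted p = 0.00464). Gata3 (1.37 ± 0.35) was higher and Msx2 (-0.86 ± 0.26) lower, and Dlx5 had 0.76 to 3.62 CPM in the Skp1acont libraries and 0 to 0.69 CPM in wt. Of the libraries compared, only Skp1acont replicate 2 reached the low-count filter for Dlx5. Of 18 junction genes 3 were higher, Jup (1.30 ± 0.31) among them, and 4 lower, among them Cxadr (-1.39 ± 0.31), Ctnnb1 (-1.65 ± 0.53) and Tjp1 (-1.31 ± 0.44). The desmosome gene Pkp3 had 1.71 to 6.64 CPM in the Skp1acont libraries and 0 to 0.734 CPM in wt. No wt library reached the low-count filter for Pkp3, so its direction was largely fixed by the filter. The basal and periderm keratin genes Krt5 and Krt6a were called higher on at most 3.02 and 2.11 CPM, both in Skp1acont replicate 2, with no count in the 4 wt libraries. Without that library neither passed the filter, and 1 keratin of the list was tested. Snai2 (-1.60 ± 0.30), Twist1 (-1.17 ± 0.29), Zeb1 (-0.94 ± 0.26) and Cdh2 (-1.15 ± 0.40) of the mesenchymal state list were lower. Marker sums of gut endoderm ran from 20.2 to 92.4 CPM in the Skp1acont libraries and from 23.5 to 173 CPM in wt. Those of trophoblast and decidua ran from 11.2 to 35.3 CPM in the Skp1acont libraries and from 8.62 to 183 CPM in wt. With library totals 7 of 18 regulators were higher and none lower, and 4 of 18 junction genes higher and 1 lower. Among all genes 41.4% were higher and 8.09% lower in that fit. With the background subtracted 2 of 12 regulators were higher and none lower, and 1 of 16 junction genes higher and 2 lower, beside 17.8% and 17.9% of all genes. Without Skp1acont replicate 2, in a fit that called 56% of all genes, 4 of 18 junction genes were higher and 6 lower, 1 of 9 desmosome genes higher and 1 lower, 5 of 16 regulators higher and 3 lower, and 1 of 8 mesenchymal state genes higher and 6 lower. Of 4 tested pluripotency markers 3 were higher (without that library 1 was tested and not called), and of 8 neural crest markers 4 were lower and none higher. The part of any of these in the values of Grhl2 and Tfap2a was not tested.

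The distance of these genes from background differed between the groups. Trp63 had 0.76 to 1.10 times the count that the background rate gives over its exons in the 5 libraries with a Skp1a label, and 1.50 to 4.79 times in wt. Its values with a Skp1a label thus lay at about the background. Grhl2, whose exons are the longest of the set, had 1.66 to 1.92 times the background count in the Skp1aKO-labelled libraries, 3.21 times in Skp1acont PI, 1.42 to 2.78 times in Skp1acont and 1.10 to 3.14 times in wt 9.5 dpc with and without PI. In wt 9.0 dpc it had at least 8.63 times. Cldn6 had 0.468 and 0.641 times the background count in the Skp1aKO-labelled libraries, and Krt18 had 4.09 to 5.33 times there against 22.6 and 43.9 times in wt 9.5 dpc. Tfap2a had 3.15 to 14.4 times in the libraries with a Skp1a label and 6.53 to 18.2 times in wt of the same age. The background rate therefore moved with the Skp1a label beside the higher values of Grhl2, and how much of them it makes up was tested only by the subtraction given above.

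**Figure D4:**
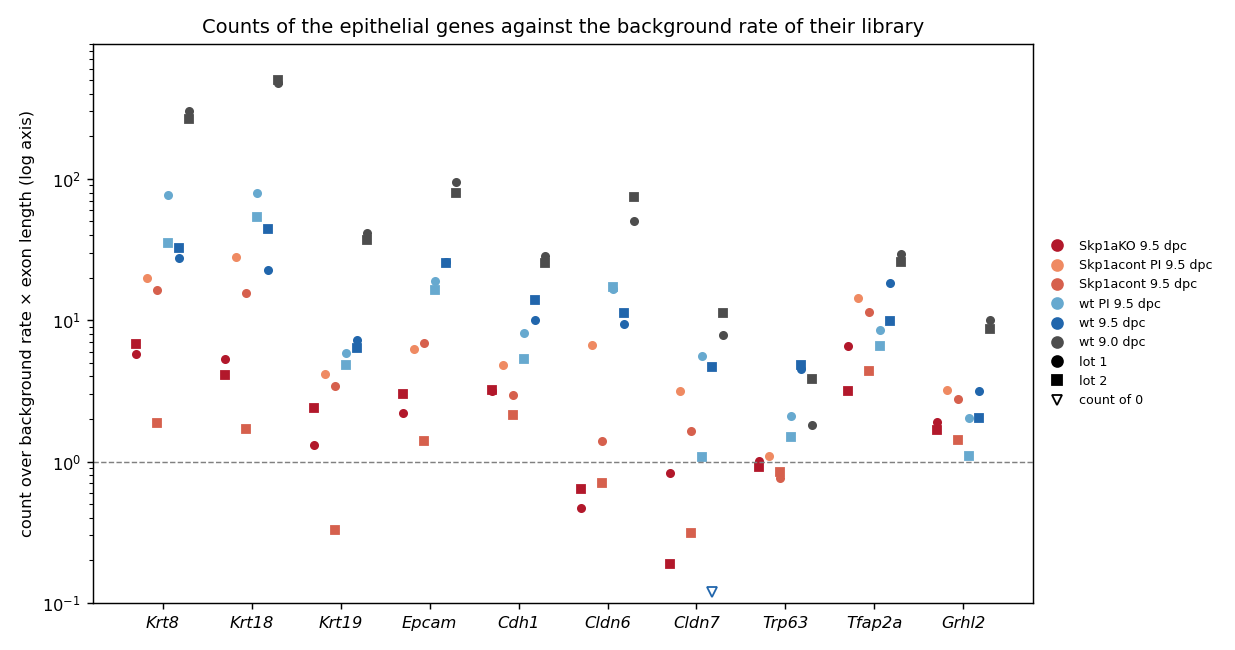
Count of each epithelial gene (x axis) divided by the count that its library's background rate gives over the exons of the gene (y axis, log axis, dashed line at 1); colours are groups, circles lot 1, squares lot 2, and the open triangle a count of 0. Trp63 lies near the line in all libraries with a Skp1a label, and Krt8 and Krt18 exceed 250 in wt 9.0 dpc.

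Across the 11 libraries the genes fell into sets that moved alike. The log2 CPM of Krt8 and Krt18 correlated with r = 0.982 and that of Tfap2a and Grhl2 with r = 0.88, while Krt8 and Grhl2 had r = 0.152. Within the 6 wt libraries alone Krt8 and Grhl2 had r = 0.855. The median correlation of a gene with the other members was 0.497 to 0.746 for the keratins, Epcam, Cdh1 and the claudins, 0.152 for Grhl2, 0.12 for Tfap2a and -0.14 for Trp63. Of 10978 other genes with a mean of at least 5 CPM, Hesx1, a homeobox gene of the anterior neural plate and pituitary, was most like the mean of the members (r = 0.954), with 24.8 and 27.3 CPM in wt 9.0 dpc and 0.19 to 2.04 CPM elsewhere. Dsp (r = 0.94), Esrp1 (r = 0.922), Adpgk (r = 0.919), Gcnt1 (r = 0.916), Vgll3 (r = 0.903), 2200002D01Rik (r = 0.898) and Phlda1 (r = 0.884) followed. All of these describe 11 points that share their groups, and all rest largely on wt 9.0 dpc being high; Vgll3, for instance, had 51.1 and 51.5 CPM there and 1.50 to 8.39 CPM in the other libraries.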

How the data were processed

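RNA was purified on Qiagen RNeasy Mini columns and its poly(A) fraction isolated with a NEBNext module, per the labels' protocols. The authors deposited whole-number read counts per gene, with no normalization. Trim Galore 0.6.7 served for trimming and GRCm38 (mm10) as the build, per the submitters' processing notes; aligner, counting tool and strand setting: not given in the sources used here. The test was that of edgeR 4.0.16 (R 4.3.3): filterByExpr by group, TMM scaling, the robust two-sided quasi-likelihood test, and Benjamini-Hochberg adjustment over all genes, with calls at an adjusted p under 0.05. The wt groups were fitted on their 6 libraries (13126 genes, biological coefficient of variation 19.6%) and the other comparisons on all 11 libraries (18837 genes, 35.3%); lone libraries are assumed to vary like the others. Values are TMM-scaled CPM. Gene positions and exon lengths come from GENCODE M21, promoter windows from RefSeq. The edgeR steps were tested on simulated data.

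The members and the gene lists were chosen with earlier results of these data known. Named are all 10 members, and from each of 5 pathway lists up to 4 genes with the smallest p among those called in a comparison; from 7 marker lists, counts, sums and genes that define a cell type. The 8 genes with the highest Pearson r, over libraries, to the mean standardised log2 CPM of the members were named as most alike. Whether lots pair the libraries was checked first, as the labels do not state it. Deviations from group means correlated in all 3 pairs of wt groups (r from 0.297 to 0.342 across genes) and in 7 pairs with a Skp1a label from -0.01 to 0.18. The main fits, those of wt included, did not use the lot. It entered only in the alternative with the lot as a replicate block, which was run for all comparisons. Alternatives were DESeq2 size factors, library totals, the DESeq2 1.42.0 Wald test, no filter, a filter of 1 CPM, the lot as a replicate block, a fit of all libraries, leaving out each library, and, chosen after seeing the data, subtraction of the background rate.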

Additional observations from a re-analysis of the deposited data

How the results depend on the processing

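Genes called, of all tested, moved as follows. For wt at 9.5 dpc against wt at 9.0 dpc the count was 4161, DESeq2 gave 2363, the fit of all libraries 302 and leaving out single libraries 2503 to 3391. For wt PI against wt at 9.5 dpc it was 3669, with 2162 by DESeq2, 13 in the fit of all libraries and 1289 to 3188 with single libraries left out. For wt PI against wt at 9.0 dpc it was 2046, with 1080 by DESeq2, 2 in the fit of all libraries, 3735 with the lot as a replicate block and 320 to 1124 with single libraries left out. Of called genes in these comparisons 47.2%, 55.7% and 55.2% were higher under TMM, and 64%, 59.2% and 78.4% with library totals. For Skp1aKO against Skp1acont it was 0, with 1 by size factors, 4 with library totals, 95 by DESeq2, 5 with no filter, 1 with the replicate block and 0 to 5723 with single libraries left out. For Skp1aKO against wt at 9.5 dpc it was 6852, with 3684 after background subtraction and 281 to 11548 with single libraries left out, and for Skp1acont against wt 8027, with 5335 and 4036 to 13062.

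Of the epithelial genes, 8, 3, 8, 0, 3 and 4 were called in these comparisons in the same order. The fit of all libraries gave 5, 0 and 0 in the wt comparisons. The replicate block gave 5 for wt PI against wt at 9.5 dpc and changed no other call of a member. DESeq2 gave 1 for Skp1aKO and 2 for Skp1acont against wt, and library totals 2 for Skp1acont against wt. Leaving out single libraries gave 1 to 2 for wt PI against wt at 9.5 dpc, 3 to 8 for wt PI against wt at 9.0 dpc, 0 to 2 for Skp1aKO against Skp1acont, 0 to 5 for Skp1aKO against wt and 2 to 6 for Skp1acont against wt. The highest counts of all genes came without either Skp1acont library for Skp1aKO against Skp1acont (5723 without replicate 1, 4650 without replicate 2), without Skp1acont replicate 2 for Skp1aKO against wt and without Skp1acont replicate 1 for Skp1acont against wt. The causes were not tested. Skp1acont against wt could give no value without the lone Skp1acont PI library.

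Values that changed sign were all of genes not called with all libraries. In Skp1aKO against Skp1acont, library totals gave 0.008 for Krt18, 0.057 for Epcam and 0.028 for Grhl2, background subtraction 0.10, 0.16 and 0.043, and Grhl2 was 0.03 with no filter and 0.004 with the replicate block. Leaving out single libraries gave -0.11 to 0.92 for Krt8, -0.47 to 0.63 for Krt18, -0.38 to 0.25 for Epcam, -0.25 to 1.37 for Cdh1, -0.62 to 1.59 for Trp63, -0.88 to 0.01 for Tfap2a and -0.49 to 0.62 for Grhl2. In Skp1aKO against wt at 9.5 dpc, library totals gave 0.54 for Krt8 and 0.52 for Trp63, background subtraction 0.20 for Krt8 and -0.086 for Krt19, and no filter -0.001 for Krt19 and -0.08 for Cdh1. Single libraries left out gave -0.48 to 0.079 for Krt8, -0.46 to 0.57 for Krt19, -0.18 to 0.56 for Cdh1 and -0.009 to 0.88 for Tfap2a. In Skp1acont against wt, library totals gave 0.38 for Krt19, 0.56 for Cdh1 and 0.38 for Trp63, and Cdh1 was 0.13 with size factors, 0.14 by DESeq2, 0.10 with the 1 CPM filter and 0.059 after subtraction. Single libraries left out gave -0.68 to 0.054 for Krt19, -0.50 to 0.20 for Cdh1 and -0.91 to 0.09 for Trp63. In wt PI against wt at 9.5 dpc Krt19 was -0.031 with size factors, -0.039 by DESeq2, -0.014 with no filter and -0.061 after subtraction, and -0.068 to 0.053 with single libraries left out. In wt PI against wt at 9.0 dpc Trp63 ran from -0.82 to 0.36. Members at counts under 30 per library, such as Cldn6, Cldn7 and Krt19 with a Skp1a label, allow only large differences to be seen.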
